A study of Mus musculus with 13 samples.

Results

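Bile acid synthesis enzymes and the hepatocyte bile acid uptake carrier were followed as 8 genes (Cyp7a1, Cyp8b1, Cyp27a1, Cyp7b1, Acox2, Slc27a5, Baat and Slc10a1), chosen by their symbol on the array platform. All 8 were found among the 19087 genes measured on 13 one-colour Agilent microarrays of cultured mouse cells. All cells were p19Arf-null and of C57BL/6-129 strain, so the controls carry the same deletion as the induced cells. Replicated groups were TTF, fibroblasts from tail tips (3 arrays), iHep, hepatocyte-like cells induced from them (4 arrays), and cultured primary hepatocytes (4 arrays), with 1 array each of mouse embryonic fibroblasts (MEF) and of tail-tip fibroblasts transduced with 3 liver-enriched transcription factors by lentivirus (TTF + 3TF). TTF and MEF were grown in DMEM with serum for 42 days after isolation. iHep and hepatocytes were grown in a modified Block's medium and sampled at day 21, so medium and day cannot be told apart from cell type in the comparisons with TTF. Each iHep array came from a single colony, and the TTF + 3TF array from an unpicked mixture of fibroblasts and epithelial cells at day 21. The labels used here name none of the 3 factors and do not say whether replicates came from separate animals, so each p-value reflects only how far these arrays spread, and that spread may be technical.

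Bile acids are made from cholesterol in hepatocytes along a classical route, opened by Cyp7a1, and an alternative route, opened by Cyp27a1 and continued by Cyp7b1. Both routes then meet in side-chain shortening in peroxisomes and conjugation to taurine or glycine, before export into bile and return to the liver by uptake carriers. Expression of the pathway is known to fall when hepatocytes are kept in culture, and Cyp27a1 and Cyp7b1 are also active on oxysterols outside the liver.

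A level is the log2 ratio of a gene's intensity to the 75th percentile of its array, so that 0 means equal to that percentile. A gene's level is the mean over its probes (2 probes for Cyp7a1 and Baat, 1 for each of the others), and levels of different genes are not compared. The limit of measurement was 3 times the local floor of the array. Of 104 pairs of these 8 genes and an array, 86 lay above it. iHep replicate 2 had the highest lowest-intensity value of the 13 arrays (10.1 against 1.83 to 6.65), and 63.2% of its features lay above the limit against 72.1% to 83% elsewhere. Calls, higher or lower, needed both a Benjamini-Hochberg adjusted p under 0.05 over all genes and a change of at least 2-fold. Errors of fold changes are standard errors (SE) of the limma fit of the 3 replicated groups.

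The iHep and hepatocyte arrays each fell into 2 pairs. iHep replicates 1 and 2 had a rank correlation over genes of 0.965, and replicates 3 and 4 one of 0.984, whereas arrays of different pairs had 0.905 to 0.927. Hepatocyte pairs had 0.983 (replicates 1 and 2) and 0.98 (replicates 3 and 4), and arrays of different pairs 0.937 to 0.951. The marker lists went with these pairs. The summed level of 10 fibroblast markers (linear, in units of the 75th percentile) was 226.8 to 326 in TTF. It was 9.15 and 13.1 on hepatocyte replicates 2 and 1 but 157 and 204 on replicates 4 and 3, and 0.65 and 2.09 on iHep replicates 2 and 1 but 13.3 and 21.4 on replicates 3 and 4. The 2 brightest fibroblast markers, Col1a1 and Pdgfrb, lay above the limit on every array. A linear sum weights such bright genes most, and single markers could differ from it. In hepatocytes against TTF, Lum was called higher (5.8), Postn lower (-5.23) and 8 were not called (7.47% and 4.91% of all genes higher and lower). In iHep against TTF 7 were called lower and 3 were not called (6.52% of all genes lower). Of 10 hepatocyte markers, 6 were called higher in iHep than in TTF and 7 in hepatocytes, against 6.86% and 7.47% of all genes. Not called in iHep were Asgr1 (-0.08), G6pc (0.91), Tat (1.44) and Tdo2 (3.96). The sum over the 10 was 28 to 155 on hepatocyte arrays, 22.8 to 32.7 on iHep arrays and 0.356 to 0.539 in TTF. All 10 were above the limit on each iHep and hepatocyte array, but so were 8, 10 and 7 on TTF replicates 1 to 3. Alb and Apoa1 were the brightest of the 10 by mean level over the 11 replicated arrays. On hepatocyte arrays 6 of 6 measured macrophage and leukocyte markers were called higher than in TTF. Their sum was 8.46 to 64.1 against 0.715 to 0.945, led by Cd14 and Lyz2. Of 8 endothelium markers 7 were called higher on hepatocyte arrays than in TTF (sum 1.18 to 5.38 against 0.113 to 0.39), among them Emcn, which no TTF array measured. Stab2 and Cdh5 were the brightest of this list by mean level over the 11 replicated arrays. On iHep arrays the leukocyte sum was 13.3 to 33, with Cd14 the highest of the list on each (levels of 3.72 to 5.04). Cd14 and Ptprc were called higher in iHep than in TTF (4.85 and 2.89). The other 4 leukocyte markers were not called, among them Lyz2 at -2.1, and the list's median fold change was 0.04. The endothelium markers Cdh5 (5.97, measured on 1 TTF array) and Lyve1 (4.29) were also called higher, while 6 were not called (list median 0.51). Adgre1, Emcn and Tie1 were above the limit on no iHep array. Of 6 biliary markers, 4 were called higher in iHep than in TTF, while Krt7 (4.49) and Sox9 (-0.33) were not called. They summed to 49.8 to 225 in iHep against 5.59 to 8.69 in TTF and 12.4 to 63.8 in hepatocytes, so the sums of iHep and hepatocytes overlapped. The part of these other cells in any result below was not tested. In bulk samples fewer cells of a type and less RNA per cell cannot be told apart. The gene targeted in these mice, Cdkn2a, lay between 1.6 and 2.32 in TTF and between -3.69 and 0.71 on iHep and hepatocyte arrays. Where its probes lie relative to the deletion was not analysed here, so it checks nothing.

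Upstream sequence is shown for the 4 members that RefSeq's promoter table held (GRCm38.p6, the 250 bases before the start site, 5′ to 3′ on the gene's strand), and they include Acox2, called in both comparisons with TTF, and Cyp8b1, called in none. Letters of 4 motifs of liver factors were searched on both strands, namely GTTAAT (HNF1), CAAAGTC (HNF4A core), AAGGTCA (NR5A2 and related receptors) and TGTTTAC (FOXA core), and a match is in capitals.
Acox2 chr14:8259020-8259269, minus strand: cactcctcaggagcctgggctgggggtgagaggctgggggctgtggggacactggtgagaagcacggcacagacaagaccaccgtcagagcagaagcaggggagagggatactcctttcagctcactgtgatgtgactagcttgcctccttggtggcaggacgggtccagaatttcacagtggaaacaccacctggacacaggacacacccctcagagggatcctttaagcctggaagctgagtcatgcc
Cyp27a1 chr1:74713285-74713534, plus strand: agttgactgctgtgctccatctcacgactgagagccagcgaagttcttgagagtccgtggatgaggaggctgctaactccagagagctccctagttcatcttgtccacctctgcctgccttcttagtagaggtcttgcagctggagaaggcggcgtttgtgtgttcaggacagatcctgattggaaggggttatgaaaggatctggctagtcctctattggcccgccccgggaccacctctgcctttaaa
Cyp8b1 chr9:121916306-121916555, minus strand: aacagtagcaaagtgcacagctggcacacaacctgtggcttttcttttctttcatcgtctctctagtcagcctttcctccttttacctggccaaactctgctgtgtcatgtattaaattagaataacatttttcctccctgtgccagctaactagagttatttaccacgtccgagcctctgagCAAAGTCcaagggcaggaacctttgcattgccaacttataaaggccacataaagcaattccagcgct
Slc10a1 chr12:80968706-80968955, minus strand: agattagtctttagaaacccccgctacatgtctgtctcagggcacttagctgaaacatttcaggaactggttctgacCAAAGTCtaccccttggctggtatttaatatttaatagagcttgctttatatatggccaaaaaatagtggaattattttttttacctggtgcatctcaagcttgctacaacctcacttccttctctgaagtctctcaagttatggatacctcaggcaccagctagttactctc
Of these windows 2 held a match, both of the HNF4A core on the gene's strand, at position -67 from the start site of Cyp8b1 and at -173 from that of Slc10a1. The same letters were found in 3.84% of all 32851 promoter windows, those of the HNF1 motif in 6.43%, of the NR5A2 motif in 4.08% and of the FOXA core in 3.17%. A match is a description of letters only. Acox2 and Slc10a1 each had 2 start sites in the table, and the outermost is shown. The inner windows held no match.

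**Figure D1:**
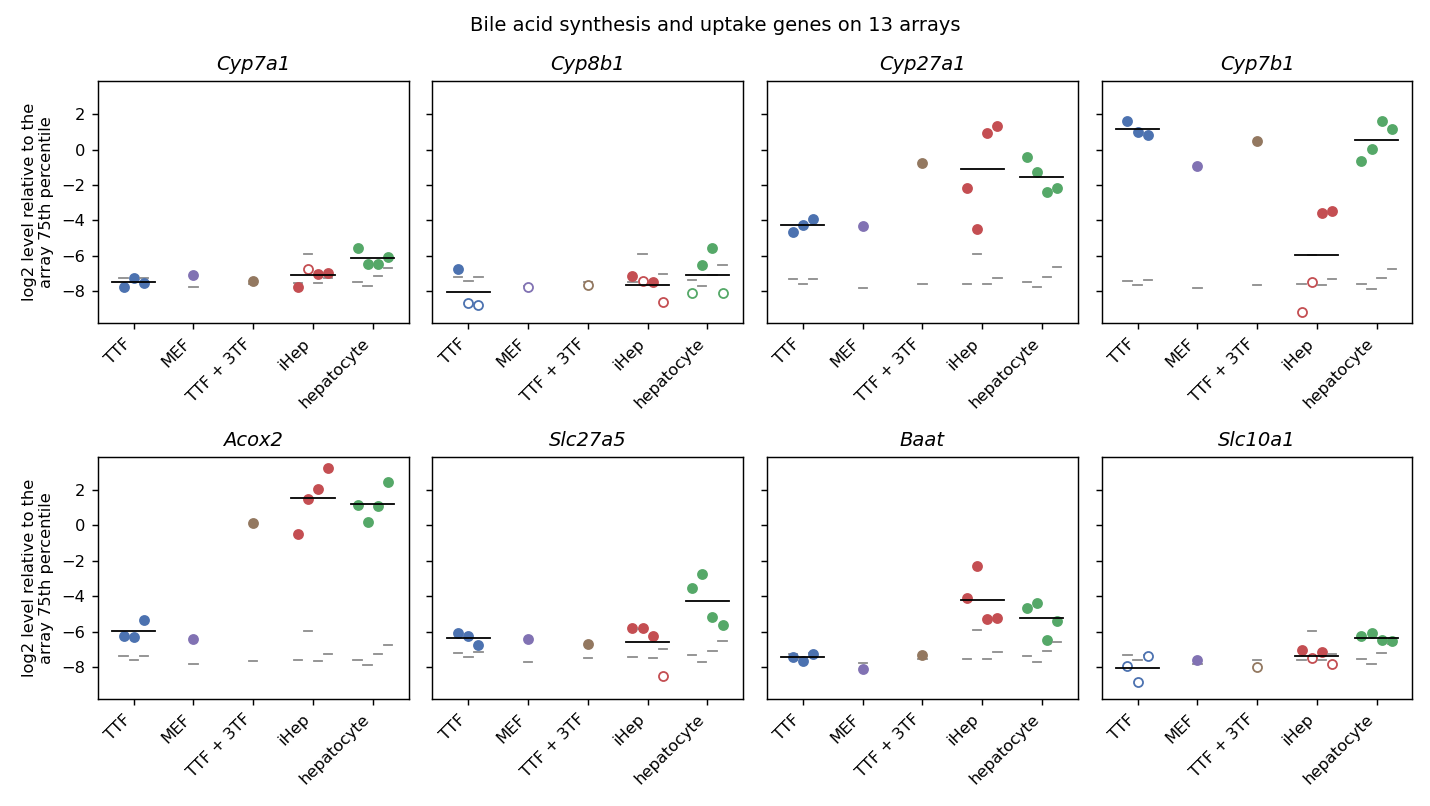
Level of each gene on each of the 13 arrays (log2 ratio to the 75th percentile, vertical axis) by group (horizontal axis, replicates in number order from left to right). Filled points lie above the limit of measurement by at least 1 probe, open points do not, grey ticks mark the limit on that array (mean over probes) and black lines the mean of groups with several arrays. Acox2 is high on all iHep and hepatocyte arrays and on the TTF + 3TF array, Cyp7b1 is low on iHep arrays alone, and Cyp8b1 lies near the limit throughout.

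Cyp7a1 is the rate-limiting enzyme of the classical route. Its levels were -7.74, -7.25 and -7.51 in TTF, -7.75, -6.72, -7.03 and -6.95 in iHep and -5.56, -6.44, -6.48 and -6.08 in hepatocytes, with -7.08 on the MEF array and -7.44 on the TTF + 3TF array. All hepatocyte arrays lay above all fibroblast arrays and above iHep replicates 1, 3 and 4, and iHep overlapped TTF. iHep replicate 2 was under its limit of -5.89, which 3 of the 4 hepatocyte values do not reach, so its rank was not measured. Cyp7a1 was called higher in hepatocytes than in TTF by 1.36 ± 0.33 (SE, n = 4 and 3, adjusted p = 0.0209). It was not called between iHep and TTF (0.39 ± 0.33, adjusted p = 0.52, 95% interval -0.33 to 1.11). Between iHep and hepatocytes the difference was -0.97 ± 0.3 (adjusted p = 0.0543, interval -1.64 to -0.3). The call against TTF ended in 7 of 22 alternatives, among them the removal of any 1 TTF array (adjusted p = 0.0639, 0.0513 and 0.0792 without replicates 1, 2 and 3), of hepatocyte replicate 1 (0.0543) or of hepatocyte replicates 1 and 2 together (0.0935), the replicate block (0.0629), and setting values under the limit to the limit (0.95, 0.0857). Of its 2 probes, the brighter gave 1.29 for hepatocytes over TTF. The other was above the limit on 3 of 4 hepatocyte arrays and on no TTF array. With the TTF arrays at their limits it gave 1.42-fold. This is no lower bound, since hepatocyte replicate 3 was under its limit too.

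Cyp8b1, the sterol 12-alpha-hydroxylase that sets the share of cholic acid, stayed near the limit in every group. It lay at -6.75, -8.66 and -8.76 in TTF, at -7.14, -7.45, -7.46 and -8.61 in iHep, and at -8.13, -6.55, -5.56 and -8.1 in hepatocytes. Only 5 of 13 arrays were above the limit (1 TTF, 2 iHep and 2 hepatocyte arrays), and the 3 groups overlapped. No comparison called it, with fold changes of 0.39 ± 0.71 for iHep over TTF (adjusted p = 0.788), 0.97 ± 0.71 for hepatocytes over TTF (0.418) and -0.58 ± 0.66 for iHep over hepatocytes (0.595). The 95% interval of the last ran from -2.04 to 0.87.

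Cyp27a1, the mitochondrial sterol 27-hydroxylase that opens the alternative route, was on average 4.45 higher on iHep replicates 3 and 4 than on replicates 1 and 2. Its levels were -4.67, -4.26 and -3.89 in TTF, and -4.29 on the MEF array. On iHep replicates 1 to 4 they were -2.15, -4.47, 0.95 and 1.32. The 3 iHep arrays other than replicate 2 lay above all TTF arrays, while replicate 2 lay within the TTF range. Hepatocytes were at -0.39, -1.24, -2.41 and -2.19, all above TTF, and the TTF + 3TF array was at -0.77. Neither comparison with TTF was called, at 3.18 ± 1.19 for iHep (adjusted p = 0.112) and 2.71 ± 1.19 for hepatocytes (adjusted p = 0.165). Without iHep replicate 2 the first became 4.31 and was called (adjusted p = 0.00951), and without iHep replicates 1 and 2 it was 5.41 (0.000343), against 0.96 without replicates 3 and 4 (0.488). The second was called when only hepatocyte and TTF arrays were fitted (adjusted p = 0.0131) and when iHep replicates 1 and 2 (0.00636) or 3 and 4 (0.0218) were left out of the shared fit. iHep and hepatocytes overlapped (0.47 ± 1.11, adjusted p = 0.815), but without iHep replicates 1 and 2 the difference was 2.69 and called (0.00942), and without replicates 3 and 4 it was -1.75 (0.145). Fits without a pair, here and elsewhere, were added after the values were seen and keep only 2 arrays of that group. Those 2 are also the most alike, so a small adjusted p there follows in part from the choice of arrays.

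Cyp7b1, the oxysterol 7-alpha-hydroxylase, was the member that set iHep apart from both other groups. It lay at 1.64, 1.03 and 0.85 in TTF and at -0.63, 0.07, 1.64 and 1.16 in hepatocytes, with -0.89 on the MEF array and 0.48 on the TTF + 3TF array. On iHep replicates 1 to 4 it lay at -9.19, -7.5, -3.57 and -3.48, the first and second of them under the limit. Every iHep array was below every other array. Cyp7b1 fell by 7.11 ± 1.26 in iHep against TTF (n = 4 and 3, adjusted p = 0.00359). Against hepatocytes the difference was -6.49 ± 1.16 (n = 4 and 4, adjusted p = 0.00479). Both sizes depend on the limit and on the pair. With values under the limit set to the limit the differences were -6.32 from TTF and -5.71 from hepatocytes, and without iHep replicates 1 and 2 they were -4.7 and -4.09, all of them called. On iHep replicates 1 and 2 Cyp7b1 was under the limits of -7.62 and -5.93. With both arrays set to these limits, their mean was 247-fold below the TTF mean and 161-fold below the hepatocyte mean. These are lower bounds for the mean of the 2 arrays. The bound for replicate 2 alone is smaller, since its limit is the higher. Hepatocytes were not called against TTF (-0.61 ± 1.26, adjusted p = 0.808, interval -3.39 to 2.16). This interval uses a spread shared by the 3 groups, whose standard deviations were 0.42 in TTF, 1.03 in hepatocytes and 2.87 in iHep. Its width therefore reflects mostly the iHep arrays.

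Fibroblast markers and Cyp7b1 differed in the same direction between the pairs of iHep and of hepatocyte arrays. On iHep arrays Cyp7b1 was lower on replicates 1 and 2 (marker sums of 2.09 and 0.65) than on replicates 3 and 4 (13.3 and 21.4). On hepatocyte arrays it was lower on replicates 1 and 2 (13.1 and 9.15) than on replicates 3 and 4 (204 and 157). Across groups, like sums went with different levels. Cyp7b1 was at -3.57 on iHep replicate 3 but at -0.63 on hepatocyte replicate 1. It was at -0.89 on the MEF array (sum of 247) and at 0.48 on the TTF + 3TF array (71.4). The genes whose pattern over the 13 arrays was most like that of Cyp7b1 were Rarres2 (Pearson r = 0.964), Colec12 (0.963) and Srpx2 (0.955), of 17317 genes compared. Rarres2 lay between -5.42 and -1.37 on iHep arrays and between 0.02 and 3.45 on all others. The part of fibroblasts in the Cyp7b1 values was not tested.

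**Figure D2:**
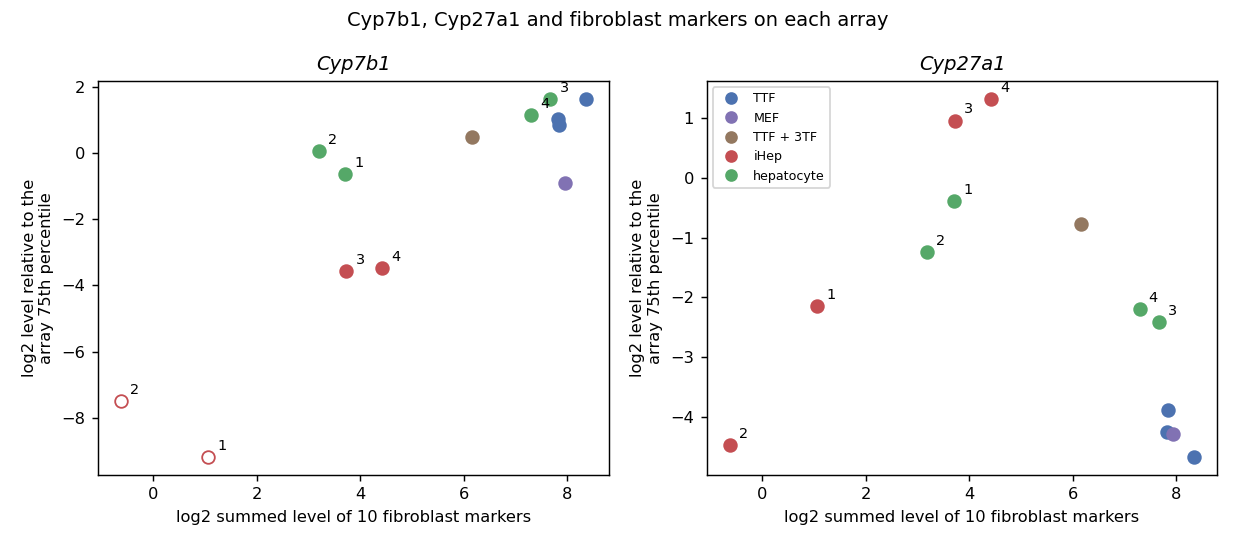
Level of Cyp7b1 (left) and Cyp27a1 (right) on each array (log2 intensity relative to the 75th percentile, vertical axes) against the log2 summed linear level of 10 fibroblast markers on that array (horizontal axes). Colours are groups, digits are replicate numbers of iHep and hepatocyte arrays, and open points lie under the limit. iHep replicates 1 and 2, with the lowest sums (2.09 and 0.65 before log2), have the lowest Cyp7b1 values, and Cyp27a1 is highest on iHep replicates 3 and 4 (0.95 and 1.32).

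Acox2, the peroxisomal branched-chain acyl-CoA oxidase that shortens the sterol side chain, had the largest increase of the 8 in both comparisons with TTF. Its levels were -6.24, -6.34 and -5.36 in TTF and -6.45 on the MEF array. They were -0.5, 1.52, 2.05 and 3.27 in iHep, 1.15, 0.17, 1.09 and 2.43 in hepatocytes, and 0.14 on the TTF + 3TF array. All 9 of these latter arrays lay above every fibroblast array by more than 4 log2 units. Acox2 rose by 7.56 ± 0.78 in iHep (n = 4 and 3, adjusted p = 0.00015) and by 7.19 ± 0.78 in hepatocytes (n = 4 and 3, adjusted p = 0.000267), and stayed called in all 22 alternatives of each, with fold changes of 6.49 to 8.64 and 6.64 to 7.74. The 2 comparisons share the TTF arrays. iHep and hepatocytes overlapped (0.37 ± 0.73, adjusted p = 0.775, interval -1.23 to 1.98). Most like it over the 13 arrays were Fgg (r = 0.97), which encodes a fibrinogen chain, Acnat1 (0.969), a relative of Baat among acyl-CoA N-acyltransferases, and Cldn2 (0.963), a claudin of leaky epithelia.

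Slc27a5 encodes the bile acyl-CoA synthetase that activates bile acids before conjugation. It lay at -6.1, -6.27 and -6.74 in TTF, at -5.81, -5.8, -6.27 and -8.54 in iHep, and at -3.52, -2.74, -5.18 and -5.64 in hepatocytes. Hepatocyte arrays were above all others, with replicates 1 and 2 highest, and iHep replicate 4 was under the limit. Slc27a5 was called in no comparison, at -0.23 ± 0.8 for iHep over TTF (adjusted p = 0.893), 2.1 ± 0.8 for hepatocytes over TTF (0.111) and -2.33 ± 0.74 for iHep over hepatocytes (0.0576), although hepatocytes overlapped neither TTF nor iHep. With the replicate number as a block both of these were called (2.65, adjusted p = 0.00837, and -2.33, adjusted p = 0.00892). Both were also called without hepatocyte replicates 3 and 4 (3.24, adjusted p = 0.0246, and -3.47, adjusted p = 0.0175). The labels do not say that equal replicate numbers belong together across groups, so the block may be arbitrary. The fit without replicates 3 and 4 keeps only 2 hepatocyte arrays.

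Baat joins activated bile acids to taurine or glycine. It lay at -7.45, -7.67 and -7.26 in TTF, at -4.13, -2.28, -5.26 and -5.22 in iHep, and at -4.69, -4.4, -6.46 and -5.43 in hepatocytes, with -8.12 on the MEF array and -7.33 on the TTF + 3TF array. All iHep and hepatocyte arrays were above all fibroblast arrays. In iHep replicates 1 and 2 were the highest, the reverse of the order seen for Cyp27a1 and Acox2. Baat rose by 3.24 ± 0.71 in iHep against TTF (n = 4 and 3, adjusted p = 0.0115), a call that just missed the threshold without TTF replicate 2 (3.13, adjusted p = 0.0502). The size was 2.22 without iHep replicates 1 and 2 and 4.25 without replicates 3 and 4. In hepatocytes the difference from TTF was 2.21 ± 0.71 and not called (adjusted p = 0.0642), but 8 of 22 alternatives called it, among them the brightest probe (2.8, adjusted p = 0.0262) and the fit without hepatocyte replicate 3 (2.62, adjusted p = 0.0377). Its brighter probe gave 3.71 for iHep and 2.8 for hepatocytes over TTF. The other was measured on 4 iHep arrays, 2 hepatocyte arrays and no TTF array, and gave at least 3.52-fold for iHep. For hepatocytes it gave 1.61-fold with the TTF arrays at their limits. This is no lower bound, since hepatocyte replicates 3 and 4 were under their limits too. With values under the limit set to it, Baat was 2.76 higher in iHep (adjusted p = 0.0163) and 1.91 higher in hepatocytes (adjusted p = 0.0868). iHep and hepatocytes overlapped (1.02 ± 0.65, adjusted p = 0.32, interval -0.42 to 2.47).

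Slc10a1 encodes NTCP, the sodium-dependent carrier that takes conjugated bile acids up from blood. It lay at -7.94, -8.87 and -7.38 in TTF, none above the limit, and at -7.07, -7.5, -7.18 and -7.86 in iHep, where replicates 1 and 3 were above it. Hepatocytes were at -6.28, -6.11, -6.48 and -6.56, all above the limit and above every TTF array. They lay above iHep replicates 1, 3 and 4 too, but iHep replicate 2 was under its limit of -5.97, which is higher than all 4 hepatocyte values, so its rank was not measured. Slc10a1 was called higher in hepatocytes than in TTF at an adjusted p of 0.0112 (1.71 ± 0.36). As a bound this is at least 2.11-fold, taken against the limit on the TTF arrays. The call ended with quantile normalization (1.34, adjusted p = 0.0614), with values set to the limit (1.08, 0.055) and without hepatocyte replicates 1 and 2 (1.54, 0.0874). iHep was not called against TTF (0.66 ± 0.36, adjusted p = 0.284). Against hepatocytes iHep stood at -1.05 ± 0.33 (adjusted p = 0.057, interval -1.78 to -0.32), a difference called without TTF replicate 2 (0.0349) or 3 (0.0485) and when these 2 groups were fitted alone (0.0422).

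Across the 8 genes, 2 were called higher and 1 lower in iHep against TTF, where 6.86% of all genes were called higher and 6.52% lower (13.4% in all). In hepatocytes against TTF 3 were higher, namely Acox2, Cyp7a1 and Slc10a1, and 0 lower, where 7.47% of all genes were higher and 4.91% lower (12.4% in all). Between iHep and hepatocytes 1 was lower, Cyp7b1, where 6.25% of all genes were higher and 7.5% lower (13.7% in all). Over all genes the hepatocyte against TTF comparison had 1426 higher and 937 lower, but 1135 and 1216 with quantile normalization. Groups did not overlap for 3 of the 8 between iHep and TTF, for 6 between hepatocytes and TTF and for 4 between iHep and hepatocytes, against 26.4%, 33.1% and 20.9% of all genes. The 4 of the last comparison, Cyp7a1, Cyp7b1, Slc27a5 and Slc10a1, had lower values in iHep. For Cyp7a1 and Slc10a1 this rests on iHep replicate 2, which was under its limit, and with such values set to the limit 2 of the 4 did not overlap. The median fold change over the 8 was 0.52 for iHep over TTF, 1.9 for hepatocytes over TTF and -0.78 for iHep over hepatocytes, against 0.07, 0.07 and -0.02 over all genes. With Slc10a1 at its bound the first and second were 0.39 and 1.73. With values under the limit set to it, 1 of the 8 was called in hepatocytes, Acox2, and without hepatocyte replicates 1 and 2 this was also the count.

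**Figure D3:**
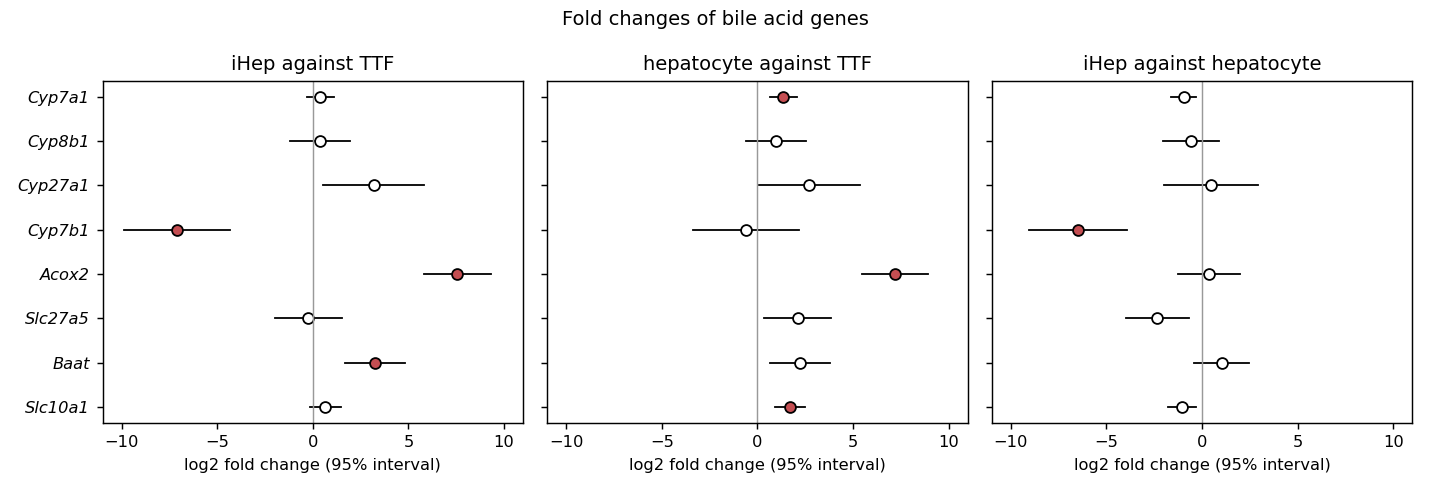
Log2 fold change of each gene (points) with its 95% interval (lines) in the 3 comparisons, from the limma fit of 4 iHep, 3 TTF and 4 hepatocyte arrays. Red points were called. Acox2 stands at 7.56 and 7.19 over TTF, and Cyp7b1 at -7.11 against TTF and -6.49 against hepatocytes.

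The TTF + 3TF array had no replicate and gets no test. Of the 8 genes, 2 differed at least 4-fold from the mean of the TTF arrays and lay beyond their range, Acox2 (6.12 above the mean) and Cyp27a1 (3.5 above), against 10.2% of all genes. Cyp7b1, at 0.48, was 0.7 below the TTF mean. Baat (0.13 above), Slc10a1 (0.04 above), Cyp7a1 (0.06 above), Cyp8b1 (0.39 above) and Slc27a5 (0.34 below) were within the TTF range. The fibroblast marker sum on this array was 71.4 and the hepatocyte marker sum 20.2. On the MEF array 1 of the 8 was past the same bounds, Cyp7b1, at 2.07 below the TTF mean (6.06% of all genes).

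Of 16 other bile acid synthesis enzymes measured, 2 were called higher in iHep than in TTF and 14 were not called, a share near the 13.4% of all genes called there. Cyp39a1, which hydroxylates 24-hydroxycholesterol, rose by 3.24 ± 0.76 (adjusted p = 0.0166), from -2.19 to -1.91 in TTF to -0.07 to 2.53 in iHep. Slc27a2, a very long-chain acyl-CoA synthetase, rose by 3.45 ± 0.96 (adjusted p = 0.0363), and 1 of the 3 TTF arrays measured it. In hepatocytes 3 were higher than in TTF and 13 not called (12.4% of all genes called). These were Ch25h, which makes 25-hydroxycholesterol, a substrate of Cyp7b1 (4.08 ± 0.94, with hepatocyte replicate 2, at -0.6, just below TTF replicate 3, at -0.57), the acetyl-CoA hydrolase gene Acot12 (3.29 ± 0.81, measured on 1 TTF array) and the aldo-keto reductase gene Akr1c6 (2.78 ± 0.8). The same 3 genes were called lower in iHep than in hepatocytes (-3.64 ± 0.87, -2.81 ± 0.75 and -2.46 ± 0.74), and Cyp39a1 was higher there (3.4 ± 0.71), where 13.7% of all genes were called. The list's median fold change was 0.44, 0.16 and 0.1 in the 3 comparisons.

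Among 15 other transporters 3 were higher in iHep than in TTF and 12 not called, where 6.86% of all genes were higher. Abcg5, one partner of a sterol exporter, rose by 4.19 ± 0.62, and 1 of the 3 TTF arrays measured it. Abcg8, the other partner, was not called against TTF in iHep (0.06 ± 0.36, adjusted p = 0.947) or in hepatocytes (0.68 ± 0.36, adjusted p = 0.25). Abcc4 and Abcc3, basolateral efflux pumps, rose by 3.91 ± 0.56 and 3.22 ± 0.61. Hepatocytes had 3 higher, 1 lower and 11 not called (7.47% and 4.91% of all genes higher and lower), with Abcc2, the canalicular organic anion pump, at least 239-fold higher, since no TTF array measured it (adjusted p = 0.0121). Abcg5 and Abcc3 rose in hepatocytes too, by 4.82 ± 0.62 and 3.52 ± 0.61, while the phospholipid flippase gene Atp8b1 fell by 1.54 ± 0.38 (adjusted p = 0.0225). iHep exceeded hepatocytes for Atp8b1 (2.45 ± 0.35) and Abcc4 (2.3 ± 0.51), with 13 not called (6.25% of all genes higher). The list's medians were 0.88, 1.09 and -0.36.

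Regulators of the pathway were called higher in 7 of 16 cases in iHep against TTF and 9 were not called, where 6.86% of all genes were higher. The largest change was that of the forkhead factor gene Foxa2, at 7.96 ± 0.34, although it was measured above the limit in 1 of 3 TTF cultures. Hnf4a, which binds promoters of bile acid genes, rose by 4.95 ± 0.61, the bile acid receptor gene Nr1h4 (FXR) by 4.54 ± 0.97 and the coactivator gene Ppargc1a by 3.69 ± 0.67. In hepatocytes 6 were higher and 10 not called (7.47% of all genes higher), with Foxa2 at 11.53 ± 0.34 (the same TTF limit), Nr1h4 at 7.84 ± 0.97, the oxysterol receptor gene Nr1h3 at 4.62 ± 0.76 and Hnf4a at 4.26 ± 0.61. iHep was lower than hepatocytes for 3 regulators and higher for 1, with 12 not called (7.5% and 6.25% of all genes lower and higher). The lower ones were Nr5a2, a nuclear receptor that acts on Cyp7a1 and Cyp8b1 (-4.62 ± 0.73, adjusted p = 0.00255), Foxa2 (-3.57 ± 0.31) and Nr1h4 (-3.3 ± 0.9), and the higher one was the xenobiotic receptor gene Nr1i2 (1.78 ± 0.48). Nr5a2 lay at -5.65, -5.82, -6.25 and -7.28 in iHep, the last of them under the limit, and at -0.72, -0.02, -3.86 and -1.9 in hepatocytes, so hepatocyte replicates 1 and 2 were highest, as for Slc27a5. The list's medians were 0.95, 1.55 and -0.6.

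**Figure D4:**
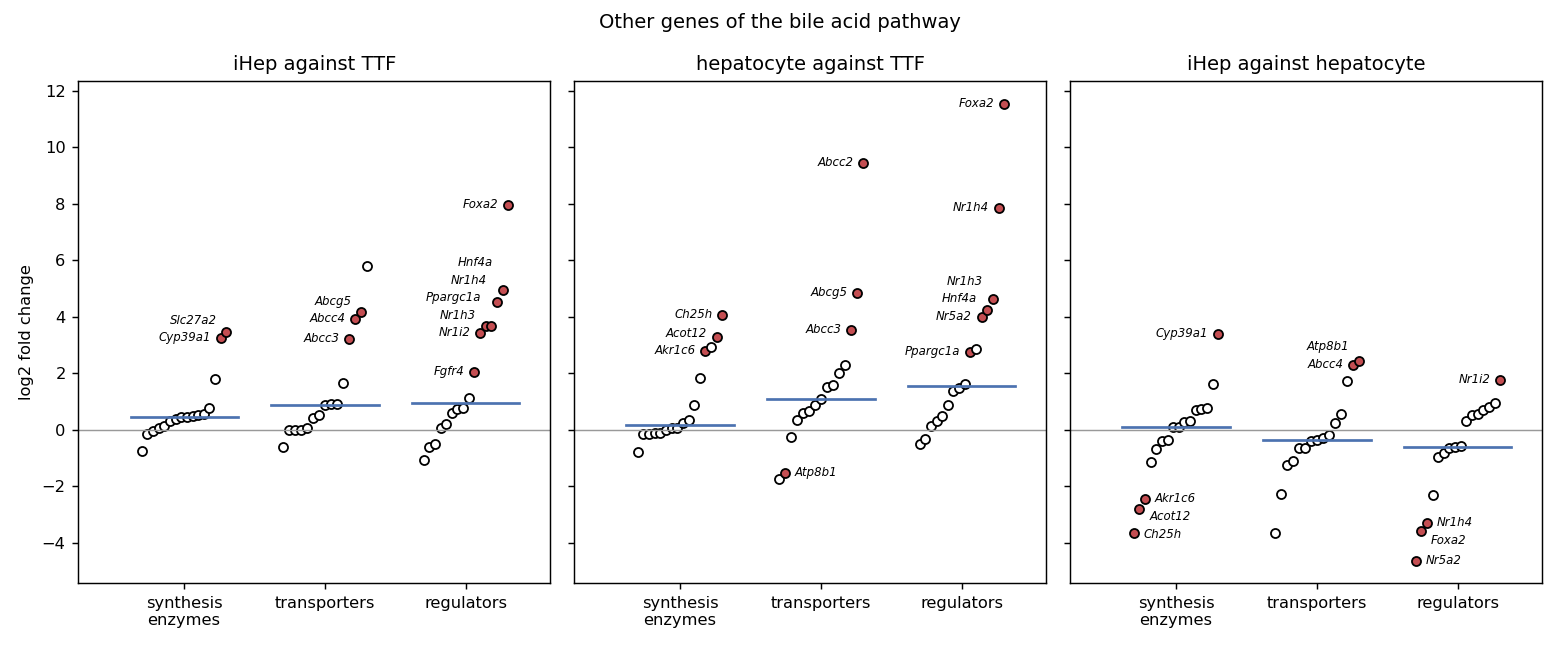
Log2 fold change (vertical axis) of 16 other synthesis enzymes, 15 other transporters and 16 regulators, sorted within each list, in the 3 comparisons. Red, named points were called, open points were not, and blue lines are list medians. Called genes in iHep against TTF are all higher. Against hepatocytes 3 synthesis enzymes and 3 regulators are lower in iHep, and 1 synthesis enzyme, 2 transporters and 1 regulator are higher.

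For the other members the 3 most alike patterns over 13 arrays were those of 1700001C19Rik, Pllp and Ly6d for Cyp27a1 (r = 0.953, 0.947 and 0.945), Sar1b, Miox and Map11 for Baat (0.931, 0.924 and 0.923), and Polr3b, Thrsp and Bmp10 for Slc27a5 (0.961, 0.946 and 0.944). For Cyp7a1 they were Apon, Cd28 and AF067063 (0.94, 0.939 and 0.932), for Slc10a1 Eppin, Olfr616 and Cyp4a14 (0.93, 0.926 and 0.912) and for Cyp8b1 Fam83c, A330035P11Rik and Wasf3 (0.89, 0.871 and 0.87). The last 3 members lay close to the limit, where the arrays' floors enter every level. Between members the highest correlations were those of Acox2 with Cyp27a1 (0.744) and of Slc27a5 with Slc10a1 (0.72), and the lowest that of Cyp7b1 with Baat (-0.711). These are descriptions over arrays of 5 kinds of culture.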

How the data were processed

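RNA from 13 cultures was labelled with Cy3 and hybridised to one-colour arrays, per the labels' protocols. Per the submitters' processing notes, the linear intensities deposited came from Agilent Feature Extraction 10.5.1.1. How background was handled is not given in the sources used here. Array medians and 75th percentiles (1140 to 2260) differed. Of 45018 features, 33653 had 1 gene symbol in the platform table, 56 several and 11309 none, and 33517 matched RefSeq by gene ID with 0 renamed. The log2 75th percentile of an array was subtracted from its log2 values, and probes of a gene were averaged (19087 genes). The minimum of 101 neighbouring features in table order served as local floor. TTF, iHep and hepatocyte arrays were fitted in 1 model in limma 3.58.1 (R 4.3.3) with Benjamini-Hochberg adjustment over all genes, tested on simulated data. MEF and TTF + 3TF stayed out. Tables were handled in Python 3.11.15, pandas 2.3.3 and NumPy 2.4.6. The number of arrays limits the precision.

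The 8 genes, the lists and the tests were chosen with earlier results of these data known. All 8 are named. From each other list the 4 called genes with the largest change per comparison are named, from marker lists the 2 brightest by mean level over the 11 replicated arrays (other markers named were chosen after their values were seen), and for likeness the 3 genes with the highest Pearson correlation among genes above the limit on at least 4 arrays. Abcg8 was named as the partner of Abcg5. Symbols not found on the array were left out of their lists. Alternatives were quantile normalization, no scaling, the brightest probe, a filter on dim genes, values set to the limit, only the groups compared, the replicate number as a block, each array left out, and limits of 2 and 5 times the floor. Leaving out the iHep or hepatocyte pairs was added after seeing the data.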

Additional observations from a re-analysis of the deposited data

Results flagged for a closer look

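Of 50 sets of 4 iHep or hepatocyte arrays checked (25 named genes), 3 had a highest or lowest array set apart from the other 3 by Dixon's criterion, and chance alone gives about 1 in 20. Slc27a5 lay at -8.54 on iHep replicate 4, under the limit, against -6.27 to -5.8 on the other iHep arrays, and its gap took 0.83 of the range. Cyp39a1 lay at -0.059 on hepatocyte replicate 1 against -3.12 to -2.72 on the others. Nr1h4 lay at 2.57 on hepatocyte replicate 4 against 1.2 to 1.4 on the others. No cause was tested.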

How the results depend on the processing

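Over 528 results under alternatives, 481 kept direction and side of the threshold. The calls of Acox2 against TTF and of Cyp7b1 in iHep held in every alternative run. Genes called numbered 1181 to 2541 for hepatocytes against TTF, 1511 to 2750 for iHep against TTF and 1867 to 2896 for iHep against hepatocytes with 1 array left out, and members called 2 to 4, 2 to 4 and 1 to 2. Without iHep replicates 1 and 2, 4011 genes were called in iHep against TTF and 4140 against hepatocytes. Without hepatocyte replicates 1 and 2, 1266 were called in hepatocytes against TTF. Members called there were 1 with values set to the limit or without hepatocyte replicates 1 and 2, and 5 with only the groups compared, without either iHep pair or without hepatocyte replicates 3 and 4. Between iHep and hepatocytes they were 2 with only the groups compared, with the replicate block or without hepatocyte replicates 3 and 4, and 3 without iHep replicates 1 and 2. Signs turned only in results not called. Slc27a5 in iHep against TTF was 0.15 with values set to the limit, 0.32 with the replicate block, 0.41 without iHep replicate 4 (-0.50 to 0.41 with 1 array left out) and 0.57 without replicates 3 and 4. Cyp7b1 in hepatocytes against TTF was 0.23 without hepatocyte replicates 1 and 2. Between iHep and hepatocytes Cyp27a1 was -0.21 and -0.33 without iHep replicate 3 or 4 (-0.33 to 1.6 with 1 array left out), -1.75 without both and -0.27 without hepatocyte replicates 3 and 4. Acox2 was -0.19 without iHep replicate 4 (-0.19 to 1.07 with 1 array left out), -0.70 without replicates 3 and 4 and -0.18 without hepatocyte replicates 1 and 2. Causes were not tested. Same-numbered arrays of different groups deviated together by correlations of -0.06 to 0.11. Arrays of different numbers had -0.13 to 0.13, a range that holds the first, so these values cannot decide whether the numbers pair samples. Between iHep and hepatocyte arrays the values went with the pairs. Replicates 1 and 2 with 1 and 2, and 3 and 4 with 3 and 4, had 0.05 to 0.12. Replicates 1 and 2 with 3 and 4 had -0.1 to -0.03. The cause was not tested. Of 104 gene and array pairs, 92 lay above a limit of 2 times the floor and 72 above 5 times.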

Other observations

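The pairs of arrays also differed for canalicular pumps, given here as values chosen after they were seen. Abcb11, the bile salt export pump, lay at -0.79 and -0.76 on hepatocyte replicates 1 and 2 but at -4.18 and -4.6 on replicates 3 and 4, just above the TTF values of -5.18 to -4.7, and iHep arrays lay between -5.72 and -4.26. Abcc2 lay at 0.81 and 1.33 on iHep replicates 1 and 2 and at -7.3 and -6.9 on replicates 3 and 4. Slc10a2, the ileal bile acid carrier, lay between -8.79 and -5.77 on iHep arrays and between -8.43 and -8.09 in TTF. It is 1 of 8 intestinal markers, of which 3 were called higher in iHep than in TTF and 5 were not called. Over all genes 6.86% were higher there. The linear sum over the 8 was 11 to 133 in iHep against 0.144 to 0.253 in TTF, and bright genes weigh most in it. Cdx1 was above the limit on no iHep array. Muc2 was the highest of the 8 on iHep replicates 3 and 4 (6.2 and 6.45) but lay at -4.29 and -7.46 on replicates 1 and 2. Foxa2 lay at 1.74 on the single MEF array, above the iHep arrays (-1.32 to -0.43), where the hepatocyte marker sum was 0.37.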
